A study of Mus musculus with 4 samples.

Results

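Heparan sulphate is a linear sugar chain that cells attach to a small set of proteoglycan core proteins on their surface and in the matrix. In the Golgi a polymerase lengthens the chain, an N-deacetylase and sulphotransferase (NDST) starts its modification, and O-sulphotransferases then place sulphate groups that decide which growth factors the chain can bind. Mouse embryonic stem (ES) cells use these chains as co-receptors for fibroblast growth factors, WNT and BMP proteins, and the basement membranes laid down by extraembryonic endoderm are rich in heparan sulphate proteoglycans. Described here are 10 genes of this system, 5 for enzymes (Ext1, Ndst1, Hs2st1, Hs6st1 and Hs3st1) and 5 for cores (Sdc1, Sdc2, Sdc4, Gpc3 and Gpc4). They were taken by the gene symbol of the platform's annotation, with all probe sets of each gene. That gave 21 of the 45101 probe sets and 9 of the 18193 genes with a symbol of their own. Ndst1 was not analysed here.

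The cells were mouse ES cells of 3 genotypes for BAF250, an ARID-domain subunit that marks BAF complexes, a class of SWI/SNF chromatin remodellers. The groups were 2 homozygous knock-out lines (ko1 and ko2), 1 heterozygous knock-out line and 1 wild type line, each on 1 Affymetrix array, all kept feeder-free on gelatin in medium with serum and the self-renewal cytokine LIF. The labels give no letter for BAF250 (Arid1a or Arid1b in the mouse), no altered exon and no parental clone. How few arrays there are limits precision throughout, and only the homozygous group had more than 1.

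Values are MAS5 signals on a linear scale as deposited. The arrays differed in level: the median over the tested genes lay between 0.52 and 0.61 (log2) lower on the ko1, ko2 and heterozygous arrays than on the wild type array. Log2 differences were therefore taken from log2(signal + 0.675) after centring each array on its median tested gene, and after that step the median difference over all 13729 tested genes was -0.18 for homozygous minus wild type and -0.074 for homozygous minus heterozygous. Background was the brightest bacterial control probe set that carries no spike: 5.55 (ko1), 3.82 (ko2), 6.92 (heterozygous) and 7.57 (wild type). The ratio of the 3' to the 5' actin control, a sign of RNA quality, was 5.01 (ko1) and 2.61 (ko2) in homozygous lines, 2.86 in heterozygous and 1.3 in wild type. Arid1a read 7.03 and 3.57 in the homozygous lines on its brighter probe set, against 50.4 in heterozygous and 109 in wild type, and on its other probe set it read 17.3 and 1.06, against 24.1 and 42.9. The only Arid1b probe set gave 0.774 and 0.233 in homozygous cells, 3.03 in heterozygous and 6.14 in wild type, below background on all 4 arrays. Because all cells of a culture were pooled, fewer cells of a type and less RNA per cell cannot be told apart.

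The genes were selected on signals of these same arrays, Hs3st1 for standing far higher in homozygous than in wild type cells and the others as its relatives in the pathway at a time when results of the arrays were known, so their levels and differences are given as a description and without a test. The sulphotransferase gene Hs3st1 and the syndecan gene Sdc4 stood highest in the homozygous lines relative to the other arrays, Hs6st1 and the glypican gene Gpc3 stood moderately higher, and the brightest probe sets of the syndecan genes Sdc1 and Sdc2 read at background in the homozygous lines, while other Sdc1 probe sets did not all do so. Ext1 and Gpc4 differed by less than their standard errors from wild type, and Hs2st1 went both ways on its probe sets. On the brightest probe set of each gene, both homozygous arrays lay above heterozygous and wild type in 5 genes (Hs3st1, Sdc4, Hs6st1, Gpc3 and Hs2st1) and below them in 3 (Sdc1, Sdc2 and Gpc4), after centring. Over all tested genes these orders were seen in 18.1% and 21.5%. In the fit across all genes (limma, Benjamini-Hochberg adjustment, threshold 0.05) 1 of the 9 genes, Hs3st1, was called for homozygous minus wild type, where 0.364% of all tested genes were called, 0.328% higher and 0.0364% lower. For homozygous minus heterozygous 0 of the 9 were called, against 0.35% of all tested genes, 0.32% higher and 0.0291% lower. In simulated arrays with known changes, unchanged genes made up more of the calls of this fit than its threshold allows for. Every call and adjusted p here is therefore less firm than its value. Nothing is read from these counts, since the choice of the genes rests on the same arrays.

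**Figure D1:**
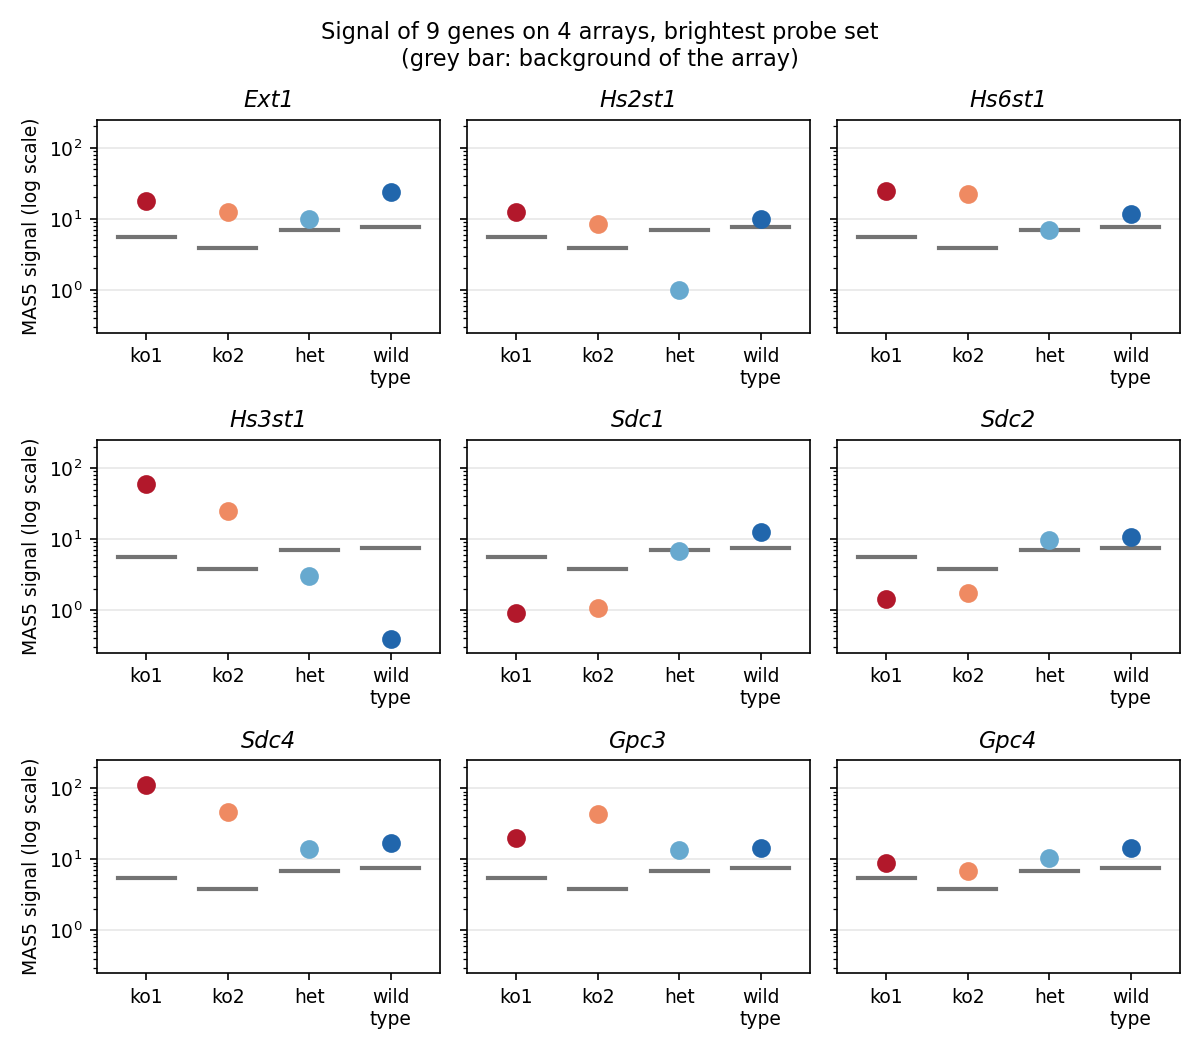
MAS5 signal (log axis) of the brightest probe set of 9 genes on each array, homozygous lines ko1 and ko2 first, then heterozygous (het) and wild type; each point is 1 array and each grey bar is the background of that array. Hs3st1 is above background in ko1 and ko2 and below it in heterozygous and wild type, while Sdc1 and Sdc2 are below background in both homozygous lines.

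Ext1 encodes a subunit of the polymerase that builds the chain together with EXT2. Its brighter probe set read 18.1 in ko1 and 12.6 in ko2, against 10.1 in heterozygous and 23.9 in wild type, above background on all 4 arrays. In deposited signal the homozygous lines lay between the heterozygous and the wild type array, while after centring ko1 lay slightly above wild type. The log2 difference was -0.072 ± 0.58 (SE of the fit) for homozygous minus wild type and 0.52 ± 0.58 for homozygous minus heterozygous, both smaller than their error. The second Ext1 probe set read between 0.447 and 5.24 and was below background on every array.

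Hs2st1 encodes the enzyme that sulphates the uronic acid units of the chain. On its brightest probe set homozygous cells had signals of 12.6 and 8.37, against 0.981 in heterozygous and 9.99 in wild type. Only the heterozygous value was below background, and the homozygous lines overlapped wild type in deposited signal. The log2 difference was 0.60 ± 0.88 for homozygous minus wild type, and the mean of the homozygous lines was at least 1.44-fold higher than heterozygous (centred log2 signals, with the heterozygous array set at its background). The other probe set with any value above background went the opposite way, with signals of 0.949 (ko1) and 5.37 (ko2), against 5.33 in heterozygous and 13.9 in wild type; its log2 difference from wild type was -1.65. The remaining 2 probe sets were below background on all arrays. The direction for Hs2st1 thus depended on the probe set: with all 4 averaged the difference from wild type was -0.43.

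Hs6st1 encodes an enzyme that sulphates the glucosamine units, a modification that FGF receptor complexes use. It has 1 probe set, which read 24.3 in ko1 and 22.2 in ko2, against 7.02 in heterozygous and 11.8 in wild type. The homozygous lines were nearly level with each other and did not overlap the other arrays, and the heterozygous value stood just above its background of 6.92. The log2 difference was 1.50 ± 0.58 (2.83-fold) for homozygous minus wild type and 1.59 ± 0.58 (3.02-fold) for homozygous minus heterozygous. Without centring the difference from wild type was 0.93.

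Hs3st1 encodes the sulphotransferase that adds a rare sulphate group completing the antithrombin binding site of anticoagulant heparan sulphate. Its single probe set, which matches several transcripts of the gene, read 59.5 in ko1 and 24.9 in ko2, against 3.07 in heterozygous and 0.396 in wild type. Both homozygous values were above background, while the heterozygous and wild type values were below it. The mean of the homozygous lines was therefore at least 7.51-fold higher than wild type and at least 5.40-fold higher than heterozygous. Such bounds compare group means of centred log2 signals with the dim array set at its background, and do not hold for each line alone. The fitted log2 difference from wild type was 5.76 ± 0.80, and it depends on the small value added before taking logs. Because both the heterozygous and the wild type array were below background, no fold is given between them. The ko1 value was the higher of the homozygous lines, and ko1 was also the array with the highest actin ratio; the part of RNA quality in this result was not tested. With ko1 left out the log2 difference from wild type was 5.19, and with ko2 left out it was 6.33.

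Syndecans are transmembrane cores. Sdc4, whose protein gathers at focal adhesions, read 112 in ko1 and 46.7 in ko2 on its brighter probe set, against 14.0 in heterozygous and 17.3 in wild type. All 4 values were above background and the homozygous lines did not overlap the other arrays. The log2 difference was 2.59 ± 0.55 (6.01-fold) for homozygous minus wild type and 2.27 ± 0.55 (4.83-fold) for homozygous minus heterozygous. The second Sdc4 probe set gave 15.8 and 24.8 in the homozygous lines, 3.45 in heterozygous and 7.98 in wild type. It ran in the same direction, with differences of 1.81 and 2.27, although here ko2 and not ko1 had the higher signal and the heterozygous value was below background. Between the lines alone, the difference of the brighter probe set from wild type was 3.16 in ko1 and 2.01 in ko2.

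Sdc1 encodes the main syndecan of epithelia. Its brightest probe set read 0.910 in ko1 and 1.08 in ko2, against 6.74 in heterozygous and 12.8 in wild type. Only wild type was above background, so the mean of the homozygous lines was at least 1.88-fold lower than wild type, and no fold is given against heterozygous. The fitted difference from wild type was -2.45 ± 1.17. The other probe sets did not all follow: the second read 2.99 and 4.50 in the homozygous lines, 6.45 in heterozygous and 7.32 in wild type (-0.31), and the third read 6.14 and 2.03, against 0.340 in heterozygous and 3.50 in wild type (0.60). Each of these was above background on a single array, a homozygous one. The fourth was below background throughout.

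Sdc2, which encodes a syndecan of mesenchymal cells, read 1.42 in ko1 and 1.75 in ko2 on its brightest probe set, against 9.86 in heterozygous and 10.6 in wild type. Both homozygous lines were below background and both other arrays above it. Their mean was at least 1.56-fold lower than wild type and at least 2.20-fold lower than heterozygous. These bounds are small because the signals of the other arrays were close to background themselves. The fitted differences were -1.76 ± 1.05 from wild type and -2.26 ± 1.05 from heterozygous. The other 3 Sdc2 probe sets were below background on all arrays and bear on neither direction.

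Glypicans are held to the membrane by a lipid anchor. Gpc3, which encodes the glypican whose loss causes a human overgrowth syndrome and which restrains hedgehog signalling, read 19.7 in ko1 and 44.1 in ko2 on its single probe set, against 13.6 in heterozygous and 14.5 in wild type. All values were above background. In deposited signal ko1 lay only slightly above wild type while ko2 lay well above it, the reverse of the order of the lines for Hs3st1. The difference was 1.56 ± 0.60 (2.95-fold) from wild type and 1.04 ± 0.60 (2.05-fold) from heterozygous. The lines differed here: from wild type it was 0.94 in ko1 and 2.17 in ko2. Gpc4, the neighbour of Gpc3 on the X chromosome, is a glypican known in ES cells for its part in WNT signalling. Its brighter probe set gave 8.88 and 6.79 in homozygous cells, 10.6 in heterozygous and 14.6 in wild type. The homozygous signals were the lowest of the 4 but the difference from wild type, -0.29 ± 0.68, was smaller than its error. The second Gpc4 probe set was below background on all arrays, with 1.11 and 0.361 in the homozygous lines against 3.67 in heterozygous and 3.66 in wild type.

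**Figure D2:**
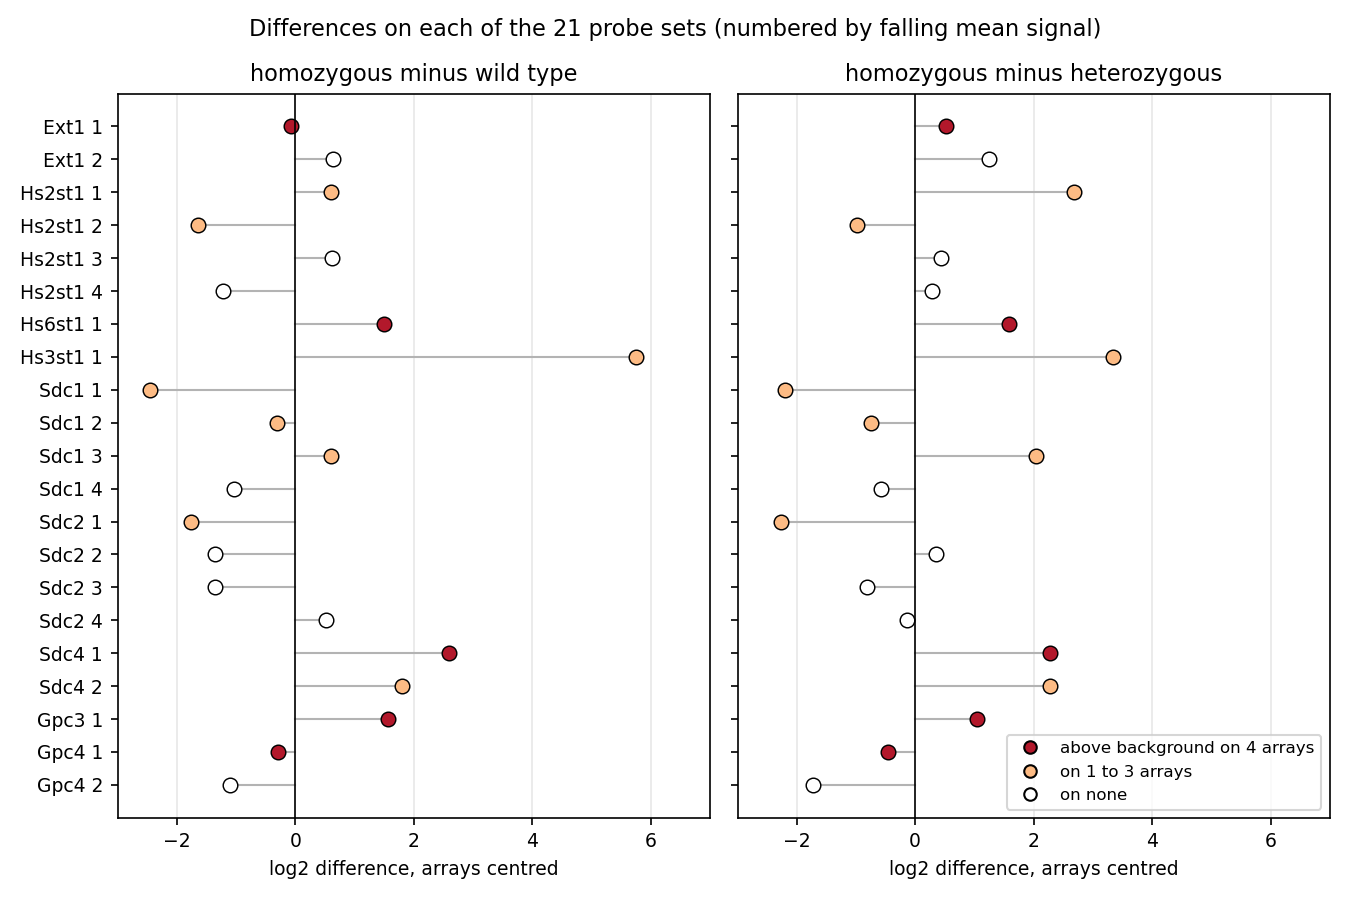
Log2 difference (arrays centred) on each of the 21 probe sets, for homozygous minus wild type on the left and homozygous minus heterozygous on the right; fill shows on how many arrays the probe set was above background, and probe sets of a gene are numbered by falling mean signal. Both Sdc4 probe sets stand above 0 in both panels, while those of Hs2st1 and Sdc1 fall on both sides.

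Of the 21 probe sets, 5 were above background on all 4 arrays (1 each of Ext1, Hs6st1, Sdc4, Gpc3 and Gpc4), 8 on 1 to 3 arrays and 8 on none. All 9 genes passed the filter on mean signal through their brightest probe set, and 13 of the 21 probe sets passed it. Hs3st1, Sdc1, Sdc2 and Hs2st1 passed with signal above background in only 1 genotype or in 2. Their differences were thus in part a condition of being measured at all. For Hs2st1, below background only in heterozygous, this concerns the difference from heterozygous. Between heterozygous and wild type, the genes above background on both arrays differed by -0.59 ± 0.67 (Ext1), -0.094 ± 0.67 (Hs6st1), 0.50 ± 1.21 (Sdc2), 0.32 ± 0.64 (Sdc4), 0.52 ± 0.70 (Gpc3) and 0.17 ± 0.79 (Gpc4), each within its error. With signals as deposited those of Sdc2, Sdc4, Gpc3 and Gpc4 changed sign (-0.10, -0.29, -0.083 and -0.44).

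The start regions of Hs3st1, Sdc4 and Sdc1 are shown because Hs3st1 had the largest fitted difference from wild type and the brightest probe sets of Sdc4 and Sdc1 lay on opposite sides of it. Each is the 250 bases upstream of the RefSeq start (GRCm38.p6), 5′ to 3′ on the strand of the gene, with matches to 3 motifs in capitals, each searched on both strands. The motifs were the GC box, with the letters GGGCGG, the TATA-box core, with the letters TATAA, and the site of GATA factors, which is GATA with A or T before it and A or G after it. Hs3st1 lies at chr5:39644632-39644881 on the minus strand, Sdc4 at chr2:164443189-164443438 on the minus strand and Sdc1 at chr12:8771146-8771395 on the plus strand.
Hs3st1: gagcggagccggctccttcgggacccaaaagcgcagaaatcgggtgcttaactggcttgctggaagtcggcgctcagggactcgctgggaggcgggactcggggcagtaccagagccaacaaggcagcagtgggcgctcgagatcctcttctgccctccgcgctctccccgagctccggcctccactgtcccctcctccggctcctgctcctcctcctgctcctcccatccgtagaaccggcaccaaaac
Sdc4: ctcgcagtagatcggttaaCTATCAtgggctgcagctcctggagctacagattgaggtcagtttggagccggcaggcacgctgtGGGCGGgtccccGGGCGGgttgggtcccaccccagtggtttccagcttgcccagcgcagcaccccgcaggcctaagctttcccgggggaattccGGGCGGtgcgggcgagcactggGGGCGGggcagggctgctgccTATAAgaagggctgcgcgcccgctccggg
Sdc1: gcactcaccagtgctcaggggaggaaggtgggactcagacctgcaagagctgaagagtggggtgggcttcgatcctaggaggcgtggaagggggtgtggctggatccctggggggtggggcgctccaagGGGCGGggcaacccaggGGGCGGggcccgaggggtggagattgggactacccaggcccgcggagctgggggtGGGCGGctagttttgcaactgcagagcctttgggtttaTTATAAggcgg
The Hs3st1 window held none of the 3 motifs. The Sdc4 window held 4 GC boxes, 1 TATAA beginning 29 bases before the start and 1 GATA core on the opposite strand beginning 231 bases before it. The Sdc1 window held 3 GC boxes and a TATAA that overlaps its own copy on the opposite strand, beginning 10 bases before the start. Over all 32851 RefSeq promoters of this length, 32.7% held a GC box, 22.8% TATAA and 26.5% a GATA core. Sdc4 and Sdc1, whose brightest probe sets lay on opposite sides of wild type in the homozygous lines, both had GC boxes and TATAA in these windows. A match is a run of letters and not a measured binding site, and the arrays carry no data on binding. Windows were found for 7 of the 10 genes; those of Hs2st1, Hs6st1, Gpc3 and Gpc4 held 1, 6, 3 and 1 GC boxes and neither other motif.

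The remaining genes of the pathway came from 5 lists of 62 genes that hold none of the 10, ordered by role, of which 49 were tested. No gene of them was called in any comparison (limma adjusted p, threshold 0.05): 0 of 49 for homozygous minus wild type, homozygous minus heterozygous and heterozygous minus wild type, where 0.364%, 0.35% and 0% of all tested genes were called. At an unadjusted p under 0.05, 2, 4 and 2 of the 49 passed, where 6.96%, 6.57% and 3.19% of all tested genes did. Their median log2 difference from wild type was 0.28, against -0.18 over all tested genes, with 26 above 0 and 23 below. Both homozygous arrays lay above the others in 13 and below them in 10 of the 49, where all tested genes gave 18.1% and 21.5%. Of the 49, 8 were at background on all 4 arrays and 9 above it on all 4. Without centring the median from wild type turned to -0.28.

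Genes for the linker and the polymerase had a median of 0.63 over 9 tested. Ext2, the partner of Ext1, read 14.0 and 11.0 in the homozygous lines, 13.4 in heterozygous and 7.61 in wild type. The difference from wild type of 1.22 ± 0.65 did not pass (limma adjusted p = 0.765), and homozygous and heterozygous overlapped. On the second Ext2 probe set the homozygous lines, at 8.14 and 4.31, lay on either side of 6.68 in heterozygous and 7.95 in wild type in deposited signal. Extl3, which encodes an enzyme that starts the chain, read 12.4 and 15.4 in the homozygous lines, above background, and 6.64 in heterozygous and 3.67 in wild type, below it (2.30 ± 0.74, adjusted p = 0.454). Its second probe set overlapped, with 6.87 and 2.77 in the homozygous lines, 5.85 in heterozygous and 0.963 in wild type.

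Among 11 tested genes for chain modification and trimming the median was -0.30. The other NDST genes gave little signal. Ndst2 read 10.1 and 6.81 in the homozygous lines, 4.14 in heterozygous and 5.91 in wild type (1.01 ± 0.85). Ndst3 read 7.65 and 6.44, against 6.76 and 7.17 (0.54 ± 0.81), and Ndst4 read 0.772 and 3.67, against 4.25 and 12.1 (-1.79 ± 1.19). None of them passed. Of the relatives of Hs3st1, Hs3st2 and Hs3st3b1 gave signal above background. Hs3st2 read 5.68 and 6.51 in the homozygous lines, 9.43 in heterozygous and 11.2 in wild type, and Hs3st3b1 read 8.86 and 4.88, against 9.93 and 4.33. On these probe sets neither gene had both homozygous lines above the other arrays in deposited signal. The second Hs3st3b1 probe set read 8.41 and 5.45, against 3.03 in heterozygous and 6.50 in wild type. Only its homozygous values were above background. That of Hs3st2 read 8.82 and 3.66, against 7.84 in heterozygous and 8.60 in wild type, with only ko2 below background. Hs3st4, Hs3st3a1 and Hs3st6 were below background on all arrays. Hs6st2, a relative of Hs6st1, was above background only in ko2 (13.4), with 2.34 in ko1, 0.525 in heterozygous and 5.28 in wild type. Hs6st3, another relative, was below background on all arrays. Sulf2, which encodes an extracellular enzyme that removes sulphate from finished chains, was above background on every array, at 62.8 and 49.1 in the homozygous lines, 20.9 in heterozygous and 101 in wild type. On this brightest probe set the single heterozygous and wild type arrays were the extremes, and the difference from wild type was -0.30 ± 0.46. The second Sulf2 probe set read 31.3 and 21.1, against 23.3 in heterozygous and 39.3 in wild type, with ko2 lowest. The third read 35.2 and 10.1, against 14.0 and 17.0, so there the homozygous lines were the extremes. Both were above background on every array. Sulf1, with the same activity, read 7.17 and 5.27 in the homozygous lines, 6.90 in heterozygous and 16.8 in wild type (-0.79 ± 0.75).

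The other core genes had a median of -0.37 over 10 tested, and the widest difference was in Spock1, which encodes testican, a secreted proteoglycan that can carry heparan and chondroitin sulphate. It read 25.8 and 13.1 in the homozygous lines, above background, against 2.15 in heterozygous and 1.94 in wild type, below it. The fitted difference from wild type was 3.43 ± 0.86 and did not pass (adjusted p = 0.189). It passed when both homozygous arrays were set against heterozygous and wild type together (3.08, limma adjusted p = 0.023), 1 of the 49 genes, where 1.22% of all tested genes were called in that fit. Its second probe set gave 21.8 and 7.04 in homozygous cells, 1.49 in heterozygous and 7.47 in wild type. In deposited signal ko2 lay slightly below wild type there, but only the homozygous values were above background.

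The basement membrane cores differed from one another in where they lay, and none passed. Hspg2, the gene of perlecan, read 47.7 and 41.6 in the homozygous lines, 47.4 in heterozygous and 99.8 in wild type (-0.59 ± 0.45), and on its second probe set 34.5 and 22.9, against 13.3 and 30.1. Agrn, the gene of agrin, read 40.2 and 23.6, against 25.5 and 25.8 (0.82 ± 0.51). Col18a1, the gene of collagen XVIII, read 29.8 and 16.5 in the homozygous lines, 55.4 in heterozygous and 70.1 in wild type (-1.07 ± 0.50, adjusted p = 0.731), and its second probe set had the same order with 22.8 and 25.5, against 33.4 and 64.6. Of the other glypican genes, Gpc5 was below background on all arrays, Gpc1 on 3 of the 4 and Gpc2 did not pass the filter. Gpc6 split by probe set: the one used read 6.52 and 4.75 in the homozygous lines, 4.33 in heterozygous and 9.64 in wild type, while another read 13.4 and 7.71, against 0.603 and 1.59. Sdc3, the remaining syndecan gene, read 16.2 in ko1 and 3.32 in ko2, against 6.78 in heterozygous and 21.3 in wild type, with the heterozygous value between those of the homozygous lines. Its second probe set read 5.90 and 5.41, against 10.6 and 8.65, above background on all 4 arrays.

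Genes that supply sugar nucleotides and the sulphate donor PAPS had a median of 0.58 over 12 tested. Papss1, a PAPS synthase gene, read 6.68 and 7.66 in the homozygous lines, above background, against 0.794 in heterozygous and 1.53 in wild type, below it (2.39 ± 1.21, adjusted p = 0.753). Ugp2, for the enzyme that makes UDP-glucose, read 10.1 and 10.7, against 4.36 and 5.65 (1.37 ± 0.80), but its second probe set, with 4.78 and 5.45, against 3.17 in heterozygous and 9.21 in wild type, was highest in wild type. Slc35b3, a Golgi carrier of PAPS, read 5.80 and 2.23, against 5.37 and 1.39 (1.64 ± 1.22). None of the list passed. Genes of lysosomal breakdown had a median of -0.31 over 7 tested and 3 of them were at background on all arrays; Idua, the iduronidase gene, read 0.227 in ko1 and 8.91 in ko2, against 5.16 in heterozygous and 15.5 in wild type, so that the homozygous lines were on either side of background. On its second probe set they were on the opposite sides, with 5.63 in ko1 and 3.51 in ko2, against 0.995 in heterozygous and 10.7 in wild type.

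**Figure D3:**
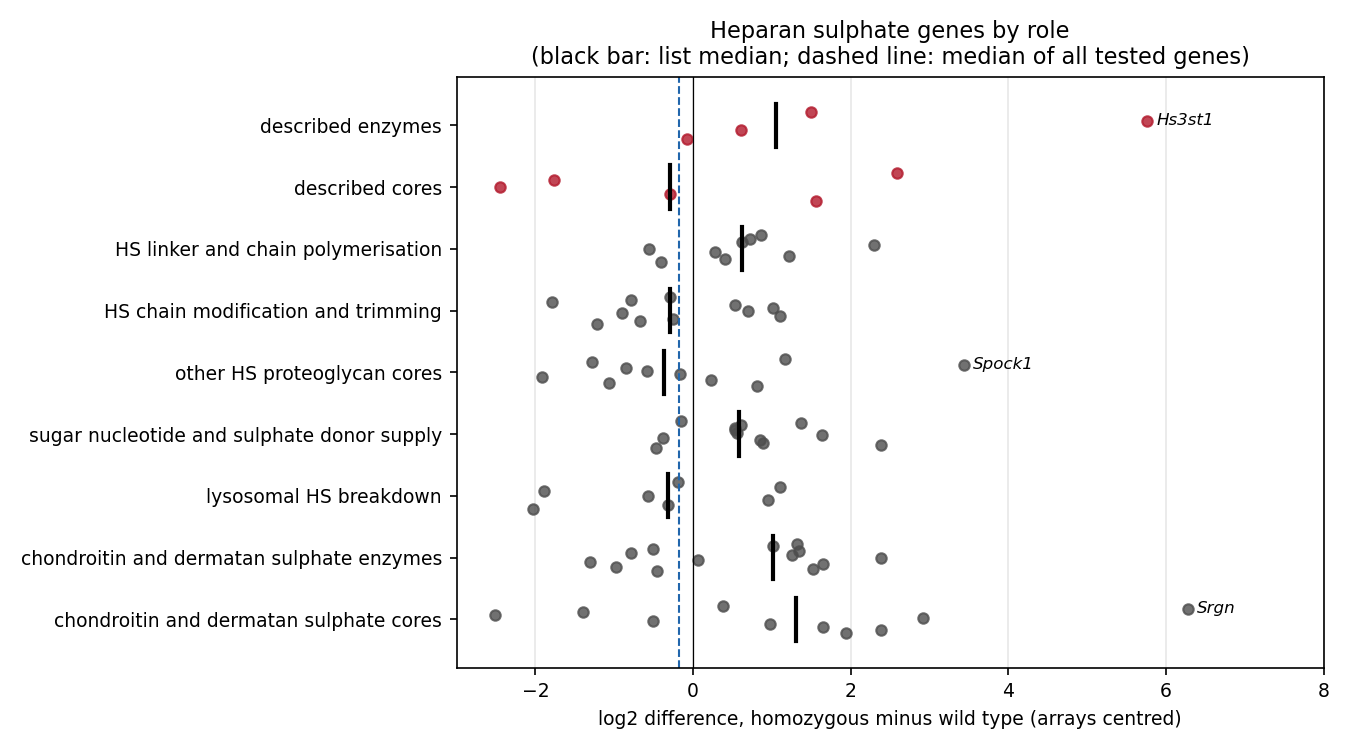
Log2 difference, homozygous minus wild type (arrays centred), of each tested gene by list; each point is 1 gene, red for the genes described first, black bars are list medians, and the dashed line is the median of all tested genes at -0.18. Of the 49 genes in the 5 other heparan sulphate lists Spock1 at 3.43 lies furthest right; Srgn at 6.28 belongs to the chondroitin and dermatan sulphate cores.

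Genes with a similar profile were sought for Hs3st1, the gene of the 9 with the widest range over the arrays, a range that rests on a wild type signal below background. The 5 tested genes nearest to it, by Euclidean distance of centred log2 values with each gene's own mean removed, over 4 arrays, were Tfpi at 1.00, App at 1.09, Srgn at 1.21, Clu at 1.22 and Lamb1 at 1.24, against a median distance of 5.15 over all tested genes. Tfpi, which encodes an inhibitor of coagulation, read 230 and 66.3 in the homozygous lines, 9.01 in heterozygous and 5.79 in wild type. App, the gene of the amyloid precursor protein, read 39.2 and 19.6, against 1.14 and 0.800. Lamb1, a laminin chain gene, read 207 and 75.6, against 6.40 and 6.05. With 4 arrays many genes share any such profile, and part of the values lie below background, so the likeness is a description only.

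**Figure D4:**
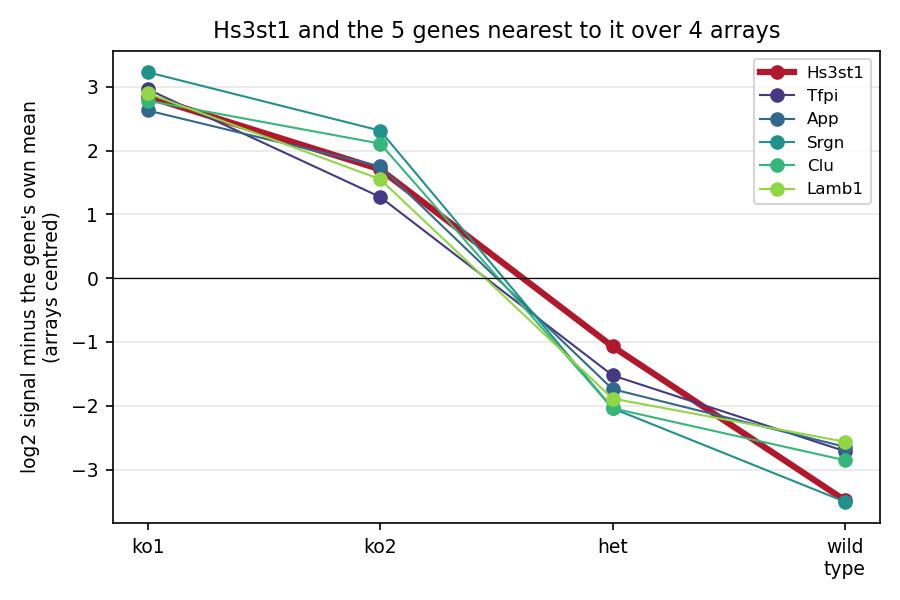
Log2 signal of Hs3st1 and the 5 genes nearest to it on each array, arrays centred and each gene's own mean removed; each point is 1 array. All 6 genes are higher in ko1 than in ko2 and higher in both than on the other arrays, whose values for Hs3st1, App, Srgn and Lamb1 are below background and have no order.

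Markers of extraembryonic endoderm were read beside these genes. Of 21 endoderm markers tested, 9 rose and 0 fell in homozygous against wild type (limma adjusted p under 0.05), and both homozygous arrays lay above the others in 19. Over all tested genes 0.328% were called higher and 0.0364% lower, and 18.1% had that order. The summed signal of the 21 markers was 7516 in ko1 and 4128 in ko2, against 142 in heterozygous and 222 in wild type. Of the markers 20, 20, 6 and 8 were above background in that order. Sparc, a matrix protein gene, made up 3875 and 2308 of these sums, against 61.2 and 90.7. Of 16 pluripotency markers 2 fell, Fgf4 (-3.20 ± 0.56) and Utf1 (-2.53 ± 0.46), and 0 rose. After centring both homozygous arrays lay below the others in 12 and above them in 3 (Klf4, Tbx3 and Dppa3). All tested genes gave 21.5% and 18.1% for these orders. The summed deposited signal of the 16 was 933 and 991 in the homozygous lines, 2130 in heterozygous and 3660 in wild type. Dppa5a carried most of these sums, with 658 and 725, against 1539 in heterozygous and 2341 in wild type. Of 10 fibroblast markers tested none was called, with summed signals of 45.7 and 72.3, against 37.7 and 63.0, Col1a2 exceeded background on every array but heterozygous, and Col3a1 only in ko2 (4.44). Of 10 trophoblast markers 1 rose, the keratin gene Krt18 (3.11 ± 0.47), with summed signals of 476 and 361, against 130 in heterozygous and 121 in wild type. Krt8 and Krt18 carried these sums: without them the other 8 summed to 35.3 in ko1 and 39.8 in ko2, against 29.4 in heterozygous and 49.8 in wild type. The part of these cell states in the differences of the heparan sulphate genes was not tested.

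Over all genes the fit called 45 higher and 5 lower for homozygous minus wild type, and the split turned to 55 higher and 84 lower with signals as deposited. With the spread not tied to signal intensity the same fit called 0 genes, Hs3st1 included, so that all calls rest on the spread borrowed along the intensity scale.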

How the data were processed

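The authors deposited 1 signal intensity per probe set and array, linear in scale, for which the submitters' processing notes name MAS5. Its scaling target and detection calls: not given in the sources used here. Groups came from the labels, and no depth applies to arrays. Probe sets with 1 gene symbol (34958) were named from the platform's annotation. For a gene with several, the one of highest mean signal was used, and genes were tested where that mean exceeded 2.55, the 40th percentile over probe sets. Log2(signal + 0.675), 0.675 being the 20th percentile of all values, was centred on the median tested gene of each array, so that differences and p-values belong to the same quantity. limma 3.58.1 in R 4.3.3 fitted 1 mean per genotype with an intensity trend and Benjamini-Hochberg adjustment over all tested genes. The design has 1 residual degree of freedom, between the homozygous lines; the lone heterozygous and wild type arrays were assumed to vary likewise, and the total with borrowed information was 12.4. The labels do not say that the lines are separate cultures, so the p-values cover the spread between these arrays, which may be technical. The script was tested on simulated data, where it recovered the simulated differences. Unchanged genes made up more of its calls there than the nominal share, so calls and adjusted p-values are less firm than they read. At-least folds are of group means and set dim arrays at the background of 27 bacterial controls.

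The described genes and the lists were chosen with earlier results of these data known. Named were all described genes and their relatives, the called genes and up to 3 widest differences of each pathway list. Also named were up to 4 of each marker list and the 5 genes nearest to Hs3st1. Agrn, Hspg2, Sulf1, Col3a1, Krt18, Dppa5a, Klf4, Tbx3 and Dppa3 are named beyond that rule or to complete a count. Alternatives changed the scaling, pseudocount, filter, probe set rule, variance model and groups. Ndst1 is not reported here.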

Additional observations from a re-analysis of the deposited data

How the results depend on the processing

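For homozygous minus wild type the fit called 45 genes higher and 5 lower. It called 84 lower with signals as deposited, 68 higher and 8 lower with arrays centred on bright genes, 1 lower after quantile normalization, 18 and 0 with a sixteenth (1/16) of the pseudocount, 70 and 14 with the pseudocount at the 40th percentile, 28 and 1 with no filter, 7 and 0 with probe sets averaged, 0 and 0 with no intensity trend, and 122 and 46 with both homozygous arrays against heterozygous and wild type together. For homozygous minus heterozygous (44 higher, 4 lower) it called 96 and 8 with signals as deposited, 21 and 1 with a sixteenth (1/16) of the pseudocount, 68 higher with the pseudocount at the 40th percentile, 29 and 2 with no filter, 7 and 0 with probe sets averaged, and 0 and 0 with no intensity trend. For heterozygous minus wild type (0 called, 438 at an unadjusted p under 0.05 in limma) it called 2 lower with signals as deposited.

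Of the other heparan sulphate genes the alternatives called none, except 1 (Spock1) in the fit of 2 groups. Their median difference from wild type, 0.28, became -0.28 as deposited and 0.090 under the stricter filter, and without 1 homozygous line it ran from 0.13 to 0.32; from heterozygous, 0.064, it ran from -0.057 to 0.20. For heterozygous minus wild type, 0.11, it became -0.50 as deposited and 0.30 with bright genes as the centre. Of the 9 described genes, 5 had a positive log2 difference in heterozygous minus wild type, against 1 as deposited and 3 with probe sets averaged. Of the single differences, Hs2st1 from wild type turned to -0.43 with probe sets averaged, and for heterozygous minus wild type Sdc4 turned to -0.29 as deposited and -0.13 with probe sets averaged, Sdc2 to -0.10 and -0.33 under the same settings, Gpc3 to -0.083 and Gpc4 to -0.44 as deposited, and Hs6st1 to 0.096 with bright genes as the centre. The cause was not tested. Against wild type 7 of the 9 kept their sign under all 10 alternatives (not Ext1 and Hs2st1), and against heterozygous all 9 did. From wild type Hs3st1 ran from 4.67 to 7.07, Sdc4 from 2.01 to 3.16 and Sdc1 from -3.02 to -0.82.

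Leaving out a homozygous line leaves no residual degrees of freedom, so it gave values and no counts of calls. No paired analysis was possible because the labels number only the homozygous lines. Most of the probe sets lay near background, which limits what their signals can show.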

Other observations

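Chondroitin and dermatan sulphate chains share their linker with heparan sulphate, and their genes were tested for comparison. Of 13 enzyme genes tested none was called for homozygous minus wild type, with a median log2 difference of 1.01. Chpf2, for a chain polymerising factor, read 22.5 and 11.1 in the homozygous lines, 6.34 in heterozygous and 7.82 in wild type (1.52 ± 0.69, limma adjusted p = 0.717). The brighter Chst15 probe set was above background in ko1 alone, at 11.6, with signals of 0.766 (ko2), 0.424 (heterozygous) and 0.521 (wild type) elsewhere, while its second was so in ko2 alone, at 4.97. Chst12 was above background in ko1 alone, at 6.70 in ko1 with 1.75, 0.958 and 1.32 on the other arrays in the same order.

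Of 10 core genes tested 1 rose, Srgn, the gene of serglycin, which carries chondroitin sulphate or heparin in secretory granules. Its signals were 130 and 63.9 in homozygous cells, against 2.50 in heterozygous and 1.08 in wild type, both below background, so that the mean of the homozygous lines was at least 17.8-fold higher than wild type (fitted 6.28 ± 0.63, limma adjusted p = 0.000652). Its call was lost with no intensity trend (adjusted p = 0.611). Bgn, the gene of biglycan, read 8.50 and 8.04 in homozygous cells, against 0.484 in heterozygous and 1.86 in wild type, but its second probe set was above background in ko2 alone (5.07). Dcn, the gene of decorin, read 6.35 in ko1 and 2.82 in ko2, against 1.67 and 0.296; neither passed, and Dcn was above background only in ko1. Ncan, the gene of neurocan, was above background only in wild type, at 14.3.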
